A study of Mus musculus with 28 samples.

Results

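H3K4me3, the trimethylation of histone H3 at lysine 4, was compared between WT and Spen KO mouse embryonic stem cells (mESCs) through the H3K4me3 peak list of each genotype. The WT list held 34823 peaks and the Spen KO list 31091, together 65914 of the 227343 regions in the 10 lists of the series. Both genotypes were HATX mESCs of mixed genomic background, which the paper describes as haploid, and their ploidy at the time of ChIP is not given. The cells carry an Xist transgene on the X chromosome inducible with doxycycline. They were grown in serum and LIF on gelatin without feeder cells, and no doxycycline treatment is given for these samples. The Spen KO cells were a single clone (clone 2) in which most of Spen is deleted, so a difference between the lists can belong to the genotype or to the clone. Each genotype had 2 ChIP libraries among the 28 samples in all, and the authors describe the libraries as technical replicates. A peak was counted when it reached an irreproducible discovery rate (IDR) below 0.05 between both libraries, and it carries 1 score per library. The lists do not say which library a score came from, so the values are given as first and second. The score percentile of a peak is the place of its mean score within its own list. A peak with 1 bp or more in common with a peak of the other list was counted as shared, and the remaining peaks as WT-only or Spen KO-only. Positions are in the mm9 build.

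H3K4me3 is laid down by the SET1 and MLL methyltransferases and removed by the KDM5 demethylases. It sits at the start of genes, mostly over CpG islands, and is broad where transcription is strong. In mESCs, many promoters of developmental regulators carry it together with the Polycomb mark H3K27me3, and such genes are kept low until the cells differentiate. Spen binds RNA and recruits histone deacetylase corepressors, both to the X chromosome through Xist and, through Rbpj, to targets of the Notch pathway.

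The sequence at the centre of a peak is shown for 1 promoter at the head of each of 4 rankings (marked in Spen KO alone, marked in WT alone, highest gain and highest loss of rank), with each CG in capitals, since CG dinucleotides mark the promoters that carry H3K4me3. All 4 are 200 bases of the plus strand of mm9. The first lies in an intron of Commd1, at chr11:22871916-22872115, and is the centre of the strongest autosomal promoter peak present in Spen KO alone, that of Zrsr1.
Zrsr1, Spen KO peak: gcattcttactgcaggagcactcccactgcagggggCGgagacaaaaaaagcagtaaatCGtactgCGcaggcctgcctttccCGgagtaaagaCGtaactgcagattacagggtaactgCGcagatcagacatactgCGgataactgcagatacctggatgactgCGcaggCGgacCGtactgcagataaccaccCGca
The next lies in an intron of H13, at chr2:152513771-152513970, and belongs to the promoter peak with the largest gain of rank, that of Mcts2.
Mcts2, Spen KO peak: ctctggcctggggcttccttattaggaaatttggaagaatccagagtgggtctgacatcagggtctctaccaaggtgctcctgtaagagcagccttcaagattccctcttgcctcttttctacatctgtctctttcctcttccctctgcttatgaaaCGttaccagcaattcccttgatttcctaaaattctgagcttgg
The third lies in an intron of Mast4, at chr13:103695353-103695552, and belongs to the promoter peak with the largest loss of rank.
Mast4, WT peak: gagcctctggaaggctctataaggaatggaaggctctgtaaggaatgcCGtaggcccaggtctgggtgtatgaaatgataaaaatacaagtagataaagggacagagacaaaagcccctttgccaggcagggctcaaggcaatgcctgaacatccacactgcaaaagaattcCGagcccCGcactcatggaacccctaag
The last lies in an exon of Polr2i, at chr7:31017512-31017711, under the WT peak whose edge alone reached the promoter of Ovol3.
Ovol3, WT peak: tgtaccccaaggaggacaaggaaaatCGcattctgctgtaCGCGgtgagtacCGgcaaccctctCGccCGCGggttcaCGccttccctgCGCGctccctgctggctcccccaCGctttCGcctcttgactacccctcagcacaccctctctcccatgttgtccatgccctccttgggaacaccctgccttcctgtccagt
These windows held 11, 1, 3 and 12 CG dinucleotides in the order shown. The median was 9 over the same window of 12252 promoter peaks matched 1-to-1 between the lists, of which 98.0% held at least 1. Fewer CG than at Mcts2 were found in 2.03% of those peaks and fewer than at Mast4 in 13.0%, while Zrsr1 (53.9%) and Ovol3 (57.6%) lay near the middle.

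Peaks were narrower in Spen KO. Of the peaks, 23462 overlapped exactly 1 peak of the other list and were overlapped by no further peak. Their median width was 1760 bp in WT against 1410 bp in Spen KO, and 81.7% were narrower in Spen KO, with a median Spen KO over WT width ratio of 0.851. At least 2-fold narrower peaks numbered 1232 and at least 2-fold wider peaks 215. Peaks of 5 kb or more, the broad class, numbered 1129 in WT and 510 in Spen KO. Conversely, 1950 WT peaks spanned 2 or more Spen KO peaks and 753 Spen KO peaks spanned 2 or more WT peaks. The second Spen KO score stood apart from the other library scores, with a median of 18.6 over the list against 24.9 for the first Spen KO score and 23.4 and 23.6 for those of WT. The part of library quality in the narrower peaks was not tested, and read depth is unknown. Less of the mark per cell and fewer cells with the mark cannot be told apart in these lists.

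Peaks present in 1 genotype lay mainly outside promoters, but in different places. A promoter (1000 bp to either side of a protein-coding transcription start site, TSS) was touched by 14.1% of WT-only peaks (Wilson 95% interval 13.3 to 14.9) and by 8.34% of Spen KO-only peaks (7.39 to 9.39), against 53.2% of the shared peaks of WT. Intervals cover counting error only. Introns away from promoters held 48.0% of the Spen KO-only peaks and 31.1% of the WT-only peaks, while they held 16.5% of all WT peaks. Median widths were 704 bp for WT-only and 691 bp for Spen KO-only peaks. The median observed over expected CpG ratio was 0.31 and 0.28, below the 0.48 of shared WT peaks. H3K27Ac, which marks active regulatory elements, covered 15.7% of WT-only H3K4me3 peaks in WT (14.9 to 16.5) and 8.70% of the same places in Spen KO (8.11 to 9.34). Of the 2951 Spen KO-only peaks, 493 (16.7%) lay under H3K27Ac of WT and 548 (18.6%) under that of Spen KO. A share of 36.7% of WT-only and 28.9% of Spen KO-only peaks had a peak of the other list within 2 kb.

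Promoters with H3K4me3 in Spen KO alone included paternally expressed imprinted genes and several genes of chromosome 19. Of 14723 protein-coding genes with a marked promoter in either list, 124 (0.842%) were marked in Spen KO alone, 95 of them on autosomes, and 457 (3.1%) in WT alone, 451 of them on autosomes. No test applies to these counts, since each genotype had 1 list. The strongest Spen KO peak of this kind lay at Zrsr1, a paternally expressed retrogene for a splicing factor, at chromosome 11 position 22870898 to 22873133, with scores of 65.3 and 41.7. No WT peak lay in the Zrsr1 window (the gene and 2 kb upstream of it), whereas 4 Spen KO peaks covered 4974 bp of it. H3K9me3, a mark of silenced chromatin, covered 5284 bp of that window in WT and 0 bp in Spen KO. Nnat, a paternally expressed gene for a small membrane protein of neurons, had a Spen KO peak with scores of 40.0 and 32.9, and its covered length was 0 bp in WT against 2892 bp in Spen KO. Its H3K9me3 coverage was 4445 bp in WT against 0 bp in Spen KO. Both genes thus had H3K4me3 in the genotype in which H3K9me3 was not called. Promoters with H3K9me3 in WT and none in Spen KO made up 7 of the 95 autosomal promoters marked in Spen KO alone (7.37%), 2.00% of those marked in WT alone, 1.42% of those marked in both and 4.28% of those marked in neither. Besides Zrsr1 and Nnat, the 7 were 1700026D08Rik, Aurkc, Gm7367, Oas1g and Wdr63.

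The other named promoters of the kind had no such exchange of marks. Ctsf, which encodes a lysosomal protease, had scores of 59.7 and 38.8, Peli3, an E3 ubiquitin ligase, 58.2 and 30.9, Mrpl11, a mitochondrial ribosomal protein, 35.5 and 40.3, and Rin1, a Ras effector, 47.0 and 34.8. A single peak with scores of 51.7 and 18.7 covered the promoters of Prdx5, a peroxiredoxin, and Trmt112, a methyltransferase subunit. All these lie on chromosome 19, as did 9 of the 95 promoters, where chromosome 19 held 508 of the 15135 marked autosomal genes. Uggt2, a glucosyltransferase of the endoplasmic reticulum (50.4 and 45.3), and Arhgap12, a GTPase-activating protein (44.4 and 37.2), lie on chromosomes 14 and 18. Of the 95 promoters, 68 had no WT base anywhere in the gene window. The median score percentile of the promoter peak was 16.7 over all promoters marked in Spen KO alone, so the named genes are the strong end of a weak class.

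The strongest promoters marked in WT alone were edges of peaks that both genotypes had. At all 10 named genes (Ovol3, Nt5dc2, Chadl, Brms1, Nup160, Synpo2l, Dqx1, Tbc1d10c, Hrc and Sspo) the WT peak overlapped a Spen KO peak outside the promoter. At Ovol3, a zinc finger gene, the WT peak of 4280 bp (scores 59.8 and 77.7) covered 1240 bp of the gene window and the Spen KO peak of 4098 bp covered 1102 bp. At Brms1, which encodes a subunit of a deacetylase complex, the covered length was 4103 bp in WT against 883 bp in Spen KO. Such edges accounted for 56 of the 457 promoters, against 5 of 124 in the other direction. Among the promoters whose WT peak was WT-only, 395 were autosomal and 281 had no Spen KO base in the window. Vrtn, a vertebral number regulator (43.6 and 36.1), Esrra, an orphan nuclear receptor (31.5 and 43.1), Slc39a3, a zinc transporter (29.2 and 40.1), and Plcb3, a phospholipase C (33.1 and 35.9), led these by score, a choice made after the values were seen. At Plcb3 the covered length was 8261 bp in WT against 0 bp in Spen KO, and that of H3K27Ac was 1691 bp and 0 bp.

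The covered length of a gene, the bases under H3K4me3 peaks from 2 kb upstream of it to its end, was smaller in Spen KO for most genes. Over 15624 marked genes the median difference, Spen KO minus WT, was -559.5 bp. A difference of 1 kb or more is called a gain or a loss here, again with no test, since there was 1 value per genotype. Gains were found at 442 genes (2.83%) and losses at 4649 (29.8%). On autosomes, 52 genes gained and 181 lost 5 kb or more.

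**Figure D1:**
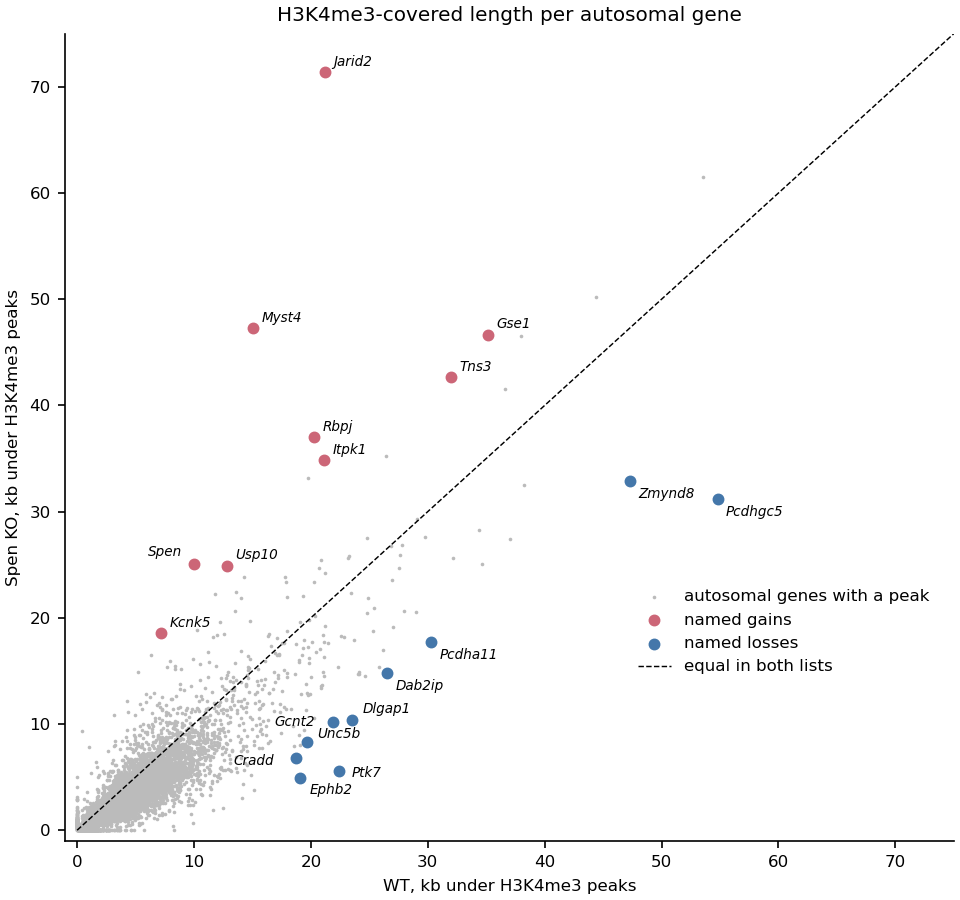
Each point is an autosomal protein-coding gene, with kb under H3K4me3 peaks in WT on the x axis and in Spen KO on the y axis. Most genes lie below the dashed line of equal length, Jarid2 stands far above it with 21207 bp in WT against 71403 bp in Spen KO, and 2 genes beyond 75 kb are not drawn.

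The 3 largest gains, at Jarid2, Myst4 and Rbpj, went with many Spen KO-only peaks outside exons. Jarid2, a partner of the Polycomb complex PRC2, had 12 WT peaks over 21207 bp and 34 Spen KO peaks over 71403 bp. Of the Spen KO peaks, 23 were Spen KO-only, 22 of them lay outside exons, and they extended from 18.5 to 139.5 kb downstream of the gene start. Their first scores ranged from 8.93 to 23.6 and their second from 8.15 to 16.8, and their median score percentile in the list was 13.7. Myst4, a histone acetyltransferase, had 9 peaks over 15057 bp in WT and 28 over 47291 bp in Spen KO, of which 22 were Spen KO-only and lay outside exons. Rbpj, the DNA-binding factor of Notch signalling that recruits Spen, had 8 peaks over 20277 bp and 20 over 37008 bp, with 14 Spen KO-only peaks. None of the Spen KO-only peaks in Jarid2, Myst4 and Rbpj lay under H3K27Ac of Spen KO, and the promoter peak of each gene was present in both genotypes. At the Jarid2 promoter the scores were 57.2 and 32.7 in WT against 63.8 and 39.0 in Spen KO, which overlap between the genotypes.

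**Figure D2:**
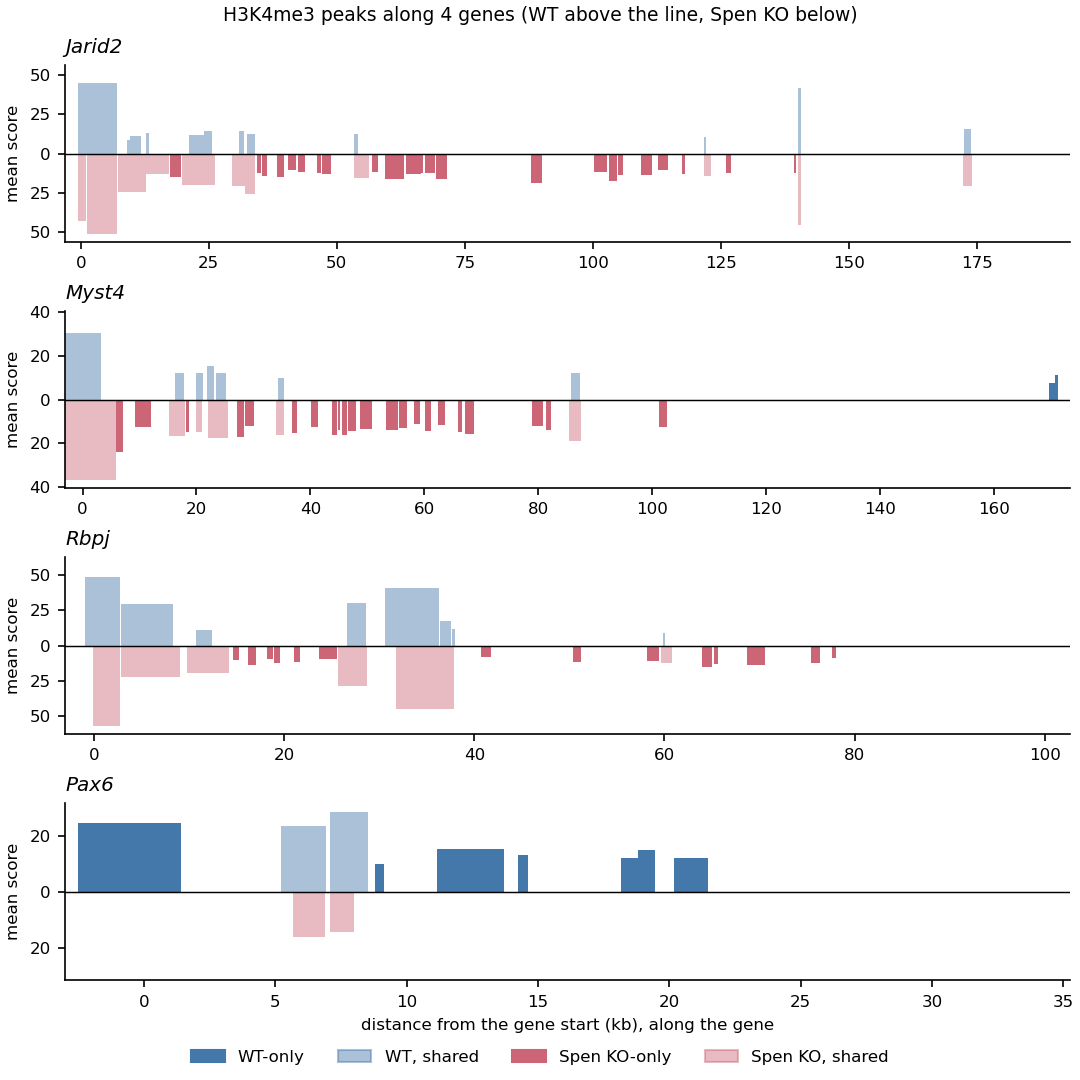
H3K4me3 peaks are drawn along Jarid2, Myst4, Rbpj and Pax6, with distance from the gene start in kb on the x axis and mean score on the y axis (WT above the line, Spen KO below). Dark bars, present in 1 genotype, number 23 in Spen KO at Jarid2, while at Pax6 the dark bars are those of WT.

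The targeted gene itself was among the gains. Spen had 9990 bp in WT against 25023 bp in Spen KO, with 3 Spen KO-only peaks. Its promoter peak was present in both genotypes, at 3910 bp in WT against 9011 bp in Spen KO, so the lists give no check of the deletion. Further gains were those of Itpk1, an inositol phosphate kinase (21115 to 34832 bp), Usp10, a deubiquitinase (12822 to 24910 bp), Gse1, which encodes a protein of corepressor complexes (35171 to 46672 bp), Kcnk5, a potassium channel (7199 to 18547 bp), and Tns3, a focal adhesion protein (32014 to 42663 bp). Gse1 also had more H3K27Ac, 2554 bp in WT against 14692 bp in Spen KO. Tns3 and Itpk1 had less, at 79404 and 51231 bp for Tns3 and 18031 and 4456 bp for Itpk1. When only 5 kb to either side of each TSS was counted, the difference turned to -1990 bp at Rbpj, -980 bp at Itpk1 and -1807 bp at Tns3. It was 6769 bp at Spen, 911 bp at Usp10, 648 bp at Gse1 and 207 bp at Kcnk5. Genes with 5 or more Spen KO-only peaks numbered 40, and those with 5 or more WT-only peaks 81.

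Of the 10 genes with the largest losses, 7 (Pcdhgc5, Ptk7, Ephb2, Dlgap1, Pcdha11, Cradd and Unc5b) lie on chromosomes 4, 10, 17 or 18, where 36.4 to 50.4% of all genes had a loss of 1 kb. Ptk7, a Wnt co-receptor, had 22389 bp in WT against 5594 bp in Spen KO. Ephb2, an ephrin receptor, had 13 peaks over 19038 bp in WT and 3 over 4939 bp in Spen KO, with 10 WT-only peaks. Unc5b, a netrin receptor, had 19649 and 8304 bp, and its promoter scores were 57.1 and 64.4 in WT against 26.6 and 30.9 in Spen KO, with no overlap. Dlgap1, a scaffold of synapses, had 23545 and 10406 bp, Dab2ip, a Ras GTPase-activating protein, 26545 and 14781 bp, Cradd, a death domain adaptor, 18760 and 6761 bp, Gcnt2, a glycosyltransferase, 21863 and 10165 bp, and Zmynd8, a reader of acetylated histones, 47307 and 32846 bp. Pcdhgc5 (54811 and 31152 bp) and Pcdha11 (30280 and 17712 bp) stand for the clustered protocadherins, whose windows span the promoters of their neighbours. H3K27Ac was absent in Spen KO where WT had 11446 bp at Ptk7, 15760 bp at Dab2ip and 5647 bp at Ephb2. The losses named here kept their sign when the Spen KO bases were scaled up by 1.28 to the WT total. For the gains this is no check, since such scaling can only enlarge them.

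The mark covered fewer bases in Spen KO at many regulators of differentiation, while the median covered length of pluripotency and housekeeping genes was near that of WT. Of the 24 ectoderm and neural regulators with covered bases, 17 lost 1 kb or more and none gained, with a median Spen KO over WT ratio of 0.65, against a ratio of 0.81 and a loss at 29.8% for all marked genes. After scaling to the WT total, 11 of the 24 still lost 1 kb, against 12.9% of all marked genes. At Pax6, a master regulator of the eye and brain, 9 WT peaks covered 12509 bp and 2 Spen KO peaks 2131 bp. Six3, a forebrain factor, had 10650 and 3306 bp, Pax7, a neural tube and muscle factor, 9679 and 2334 bp, and Lhx2, a forebrain factor, 10838 and 5631 bp. Nkx2-2, a ventral neural tube factor, was marked at its promoter in WT alone, with scores of 20.1 and 18.6, and so was Neurod1, a neuronal differentiation factor, with 23.1 and 27.6. Among the 36 mesoderm and endoderm regulators with covered bases, 16 lost 1 kb and none gained, with a median ratio of 0.73 (8 lost and 3 gained after scaling). The median WT length was 3900.5 bp for these and 4295.5 bp for the neural regulators. H3K27Ac of WT lay at 0 of these and 2 of the neural regulators, against 23 of 25 pluripotency genes. In each of these regulator lists, 8 genes lay on chromosomes 4, 10, 12, 16, 17 or 18, and Pax7 lies on 4. On those chromosomes, 36.4 to 50.4% of all marked genes had a loss of 1 kb. Of all genes without H3K27Ac in WT, 23.6% of those with 2 to 4 kb of WT coverage lost 1 kb (median ratio 0.79). With 4 to 6 kb, 59.8% did (median ratio 0.75). Gata2 had 9755 and 5620 bp, Gata3 9433 and 5446 bp and Runx1, the blood regulator, 7008 and 3204 bp. Tbx5, a heart and limb factor, had 3710 bp in WT and no peak in Spen KO. Its WT promoter peak was weak, with scores of 11.8 and 10.5 and a score percentile of 10.1.

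**Figure D3:**
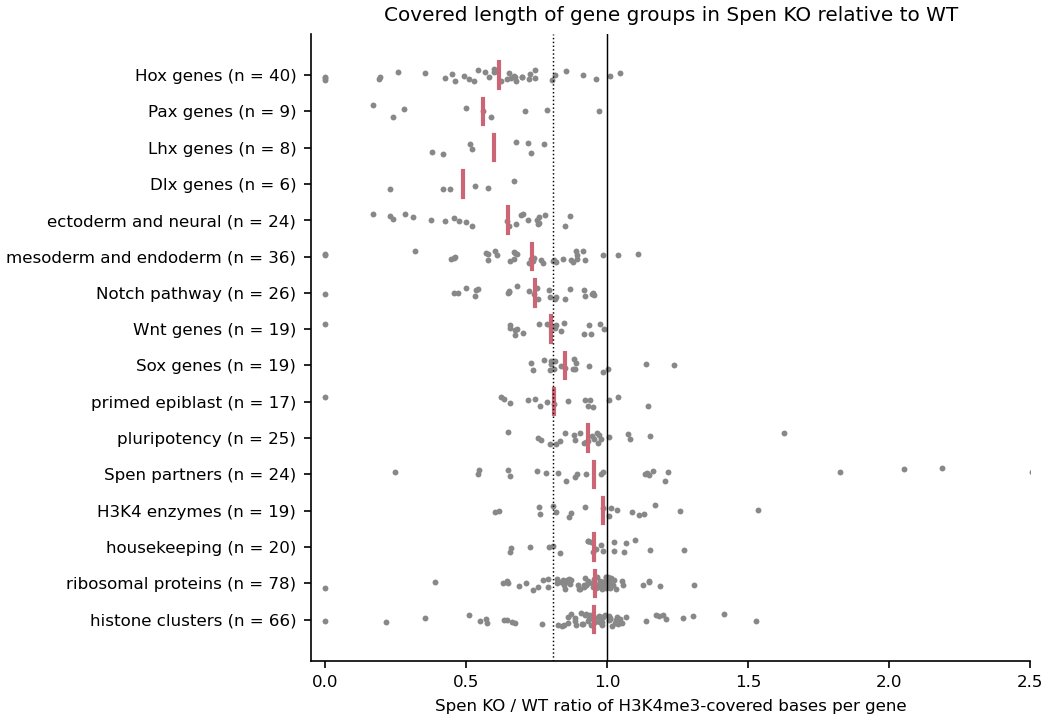
Each point is a gene with WT coverage, and the x axis is the Spen KO over WT ratio of its H3K4me3-covered bases (coloured bar, median of the group; solid line, ratio of 1; dotted line, median of all genes, 0.81). Hox, Pax, Lhx, Dlx and neural regulators lie mostly left of the dotted line and pluripotency, ribosomal and histone genes right of it; 2 genes beyond a ratio of 2.5 are not drawn.

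Homeobox families, lists that were added after the values were seen, had ratios of the same order. Of 40 Hox entries, which pattern the body axis, 23 (57.5%, against 29.8% of all marked genes) lost 1 kb and none gained. After scaling, 16 lost it (40%, against 12.9%). In WT alone, 7 promoters were marked, against 3.1% of all promoters marked in either list. These entries are not independent: Hoxa3 is a repeated entry, and neighbours such as Hoxd3 and Hoxd4 share peaks, so the same bases can be counted repeatedly. Hoxd3 had 9657 bp in WT against 3408 bp in Spen KO, with promoter scores of 40.5 and 42.8 against 17.6 and 15.5. Losses of 1 kb were also found at all 6 Dlx, all 8 Lhx and 7 of 9 Pax genes, with 5, 4 and 6 lost after scaling. Of all genes without H3K27Ac, 59.8% of those with 4 to 6 kb and 82.8% of those with 6 to 10 kb of WT coverage had such a loss, and the median WT length was 4113 bp for Dlx, 6767.5 bp for Lhx and 6441 bp for Pax genes. Irx genes lost 1 kb at 5 of 6, Tbx genes at 5 of 11, Fox genes at 16 of 40 and Wnt genes at 9 of 19, which after scaling became 2, 3, 7 and 3. The Tbx, Fox and Wnt shares were 45.5%, 40% and 47.4%, against 29.8% of all marked genes. After scaling they were 27.3%, 17.5% and 15.8%, against 12.9%. Of the 40 Fox genes, 12 lay on chromosomes 4, 10, 12, 16, 17 or 18. No Hox, Pax, Lhx or Dlx gene had H3K27Ac in WT. The Sox family differed, with 1 loss in 19 entries, none after scaling, and a ratio of 0.85.

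Of the 25 pluripotency genes found, 24 were marked at the promoter in both genotypes. So were 20 of 20 housekeeping genes and 14142 of all 22367 protein-coding genes. The lists thus held the marker genes of mESCs, but such marking is not particular to them. Of 20 genes of other differentiated tissues, 1 was marked at the promoter and 8 had covered bases. Fibroblast genes, markers of feeder or differentiated cells, were marked at 8 of 20 promoters in both genotypes, at 2 in WT alone (Col1a1 and Col6a2) and at 0 in Spen KO alone. The pluripotency genes had a median ratio of 0.93, with 7 losses (28%) and 2 gains of 1 kb. Of all marked genes, 29.8% had a loss and 2.83% a gain. After scaling the pluripotency genes had 1 loss and 14 gains, where 1960 of all 15624 marked genes gained. The median WT length of the pluripotency genes was 6048 bp, against 3170 bp for all marked genes. Tet1, which oxidises 5-methylcytosine, had 32155 and 25639 bp, the orphan receptor Esrrb 38261 and 32511 bp and Klf5 9858 and 6401 bp. Fbxo15, a target of Oct4, had 1579 bp in WT against 6380 bp in Spen KO. The promoter of Gbx2 was marked in WT alone, with scores of 37.9 and 42.8, while the gene window had 5342 bp covered in WT and 4095 bp in Spen KO. The median ratio was 0.95 for 20 housekeeping genes, with 5 losses (25%) and 1 gain (none lost and 10 gained after scaling). It was 0.96 for cytosolic ribosomal protein genes, 77 of whose 78 entries had H3K27Ac in WT. Primed epiblast genes had a ratio of 0.81, as all genes did, with 5 losses in 17 (29.4%).

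Several corepressor partners of Spen had a longer covered length in Spen KO, although not their list as a whole. Its median Spen KO over WT ratio was 0.95, as for housekeeping genes, and its median difference -201.5 bp. The median WT length of the list was 5636.5 bp, against 3170 bp for all marked genes. Of 24 Spen paralogs and corepressor partners, 7 gained 1 kb or more and 5 lost it, against gains at 2.83% of all marked genes. After scaling 13 gained and 2 lost. Gains before scaling were found at 5 of 22 genes of the H3K9me3 and retrovirus silencing machinery, 2 of 25 pluripotency and 1 of 20 housekeeping genes. After scaling these lists had 11, 14 and 10 gains, so gains after scaling were not particular to the partners. Ncor1 and Tbl1xr1, subunits of the NCoR deacetylase complex, had 5419 and 11856 bp and 5896 and 12096 bp in WT and Spen KO. Ctbp2, a corepressor of the Notch pathway, had 53548 and 61480 bp, and Gatad2a, of the NuRD complex, 14016 and 16868 bp. Mta3, another NuRD subunit, had the opposite difference, 15107 and 3775 bp, with 26118 and 1701 bp of H3K27Ac. The list holds Spen and Rbpj, given above, which are among its 7 gains. Among Notch receptors, ligands and targets, 14 of 26 (53.8%, against 29.8% of all marked genes) lost 1 kb and none gained (7 lost and 2 gained after scaling). The median WT length of the list was 4571.5 bp, 8 of its genes had H3K27Ac in WT and 10 lay on chromosomes 4, 10, 12, 16, 17 or 18, and of all genes of 4 to 6 kb without H3K27Ac, 59.8% lost 1 kb. Those with a loss included the ligands Jag2 (8714 and 4363 bp) and Dll3 (6825 and 3216 bp), the coactivator Maml3 (7796 and 4182 bp) and the receptor Notch3 (8855 and 5773 bp).

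Enzymes that write or erase the mark were covered in both genotypes. Of 19 H3K4 methyltransferases and demethylases with covered bases, 5 lost and 1 gained 1 kb (2 and 10 after scaling). Kdm5b, an H3K4 demethylase, had 13470 and 20655 bp and Ash2l, a core subunit of the methyltransferases, 8159 and 5046 bp. Among 22 genes of the H3K9me3 and retrovirus silencing machinery, 5 gained and 4 lost 1 kb (11 and 1 after scaling), with Zfp809, a zinc finger repressor of retroviruses, at 1734 and 5943 bp and Ehmt2, an H3K9 methyltransferase, at 11455 and 6970 bp. Germline genes silenced by DNA methylation had little coverage in either genotype. None of 24 lost or gained 1 kb (1 gained after scaling). With a median WT length of 811 bp, most of them could not lose 1 kb. In WT alone, 4 promoters (Rpl10l, Piwil2, Mov10l1 and Asz1) were marked, and 2 (Fkbp6 and Tuba3a) in Spen KO alone, with scores no higher than 19.9. Of 16 genes of the 2-cell stage tied to endogenous retroviruses, 2 had covered bases.

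The scores of single peaks were compared next, where each genotype had 2 values. With limma on all 23462 peaks matched 1-to-1, 0 (0%) had an adjusted p under 0.05 and the lowest adjusted p was 0.126. At an unadjusted p under 0.05, 987 (4.21%) were higher and 1029 (4.39%) lower in Spen KO. The median SE of a log2 difference was 0.34, and the differences ran from -0.71 (5th percentile) to 0.70 (95th percentile). Both Spen KO ranks lay above both WT ranks at 4461 peaks (19%) and below them at 4729 (20.2%). With percentiles taken over all peaks of the own list, the counts were 2827 and 7020. The peaks below are those with the largest differences of rank, the percentile of a peak among the 1-to-1 peaks, at autosomal promoters, and none passed the test.

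**Figure D4:**
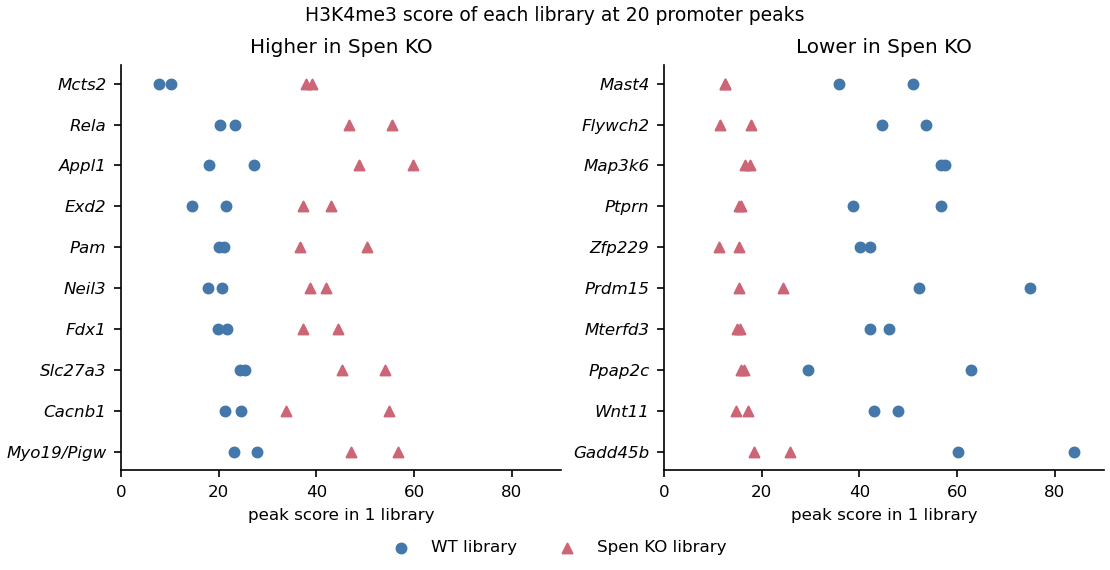
Scores of each library are shown for 20 promoter peaks chosen for the largest differences of rank, with the score on the x axis (circles, 2 WT libraries; triangles, 2 Spen KO libraries). The genotypes do not overlap at any of them, which the choice requires; at Mcts2 the WT scores are 10.3 and 7.8 and those of Spen KO 37.8 and 39.2.

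Mcts2, a paternally expressed retrogene, was among the peaks with the lowest adjusted p, with scores of 10.3 and 7.84 in WT against 37.8 and 39.2 in Spen KO. Its log2 difference was 2.24 (SE 0.34, limma adjusted p = 0.126) and its rank was 80.3 percentile points higher in Spen KO. The H3K9me3 coverage of its window was 2793 bp in WT against 0 bp in Spen KO, as at Zrsr1 and Nnat. Rela, the p65 subunit of NF-κB, had 23.2 and 20.2 in WT against 55.5 and 46.7 in Spen KO (log2 difference 1.51, SE 0.33, limma adjusted p = 0.445). Appl1, an endosomal adaptor, had 17.96 and 27.1 against 59.7 and 48.7, Exd2, a nuclease of DNA repair, 14.5 and 21.4 against 43.0 and 37.2, and Pam, which amidates peptide hormones, 20.1 and 21.1 against 50.3 and 36.7. Neil3, a DNA glycosylase, Fdx1, a mitochondrial ferredoxin, Slc27a3, an acyl-CoA synthetase, Cacnb1, a calcium channel subunit, and the shared promoter of Myo19 and Pigw followed, with rank differences of 60.7 down to 56.9 points. The Rela peak was narrower in Spen KO, at 2464 bp against 4361 bp, while the Mcts2 peak was wider, at 2127 bp against 512 bp.

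Lower scores were led by Mast4, a kinase of the microtubule-associated family, with 51.0 and 35.8 in WT against 12.4 and 12.5 in Spen KO (log2 difference -1.54, SE 0.35, limma adjusted p = 0.465). Map3k6, a stress kinase, had 56.7 and 57.6 against 17.5 and 16.6, Flywch2 44.5 and 53.6 against 17.9 and 11.4, and Ptprn, a protein of secretory granules, 38.6 and 56.7 against 15.7 and 15.3. Wnt11, a Wnt ligand, had 47.9 and 43.1 against 17.3 and 14.7, and Gadd45b, a stress response gene, 60.2 and 83.9 against 25.7 and 18.5. Prdm15, a zinc finger regulator of pluripotency, had 74.9 and 52.1 against 24.3 and 15.3, and its peak lay under H3K27Ac in WT and not in Spen KO. Zfp229, Mterfd3 and Ppap2c completed the 10, with Ppap2c the least certain, since its WT scores were 29.5 and 62.9 and its rank difference of -56.5 points became -28.6 without the second. The largest adjusted p among the 20 peaks was 0.493.

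Ranks differed by chromosome. The median rank difference of 1-to-1 peaks was -8.41 points on chromosome 10, -8.48 on 12, -7.14 on 16, -8.38 on 17, -5.11 on 18 and -3.81 on 4, and 5.07 on chromosome 19 and 10.3 on the X. It lay between -0.80 and 3.45 on the other autosomes. Every 20 Mb stretch of chromosomes 10, 12, 16, 17 and 18 with at least 20 peaks had a median below 0, and those of chromosome 4 ran from -8.99 to 2.80. Losses of covered length were found at 36.4 to 50.4% of genes on these 6 chromosomes (the highest on 17), against 20.2 to 29.0% on the other autosomes and 3.68% on the X. Without the 6 chromosomes, a grouping made after the values were seen, the share of genes with a loss was 24.7% in place of 29.8%. Of the 10 peaks with the largest losses of rank, Flywch2, Zfp229, Prdm15, Mterfd3, Ppap2c, Gadd45b and Map3k6 lie on them, and Exd2 is the 1 gain that does. Of all 23462 peaks matched 1-to-1, 17703 lie on the other chromosomes, and the 6 were grouped because their ranks were low. Centred on their chromosome, the rank differences of these 20 peaks ranged from 55.1 to 81.1 points for the gains and from -47.3 to -67.4 for the losses, with limma adjusted p of 0.0805 at Mcts2. What sets these chromosomes apart was not tested.

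**Figure D5:**
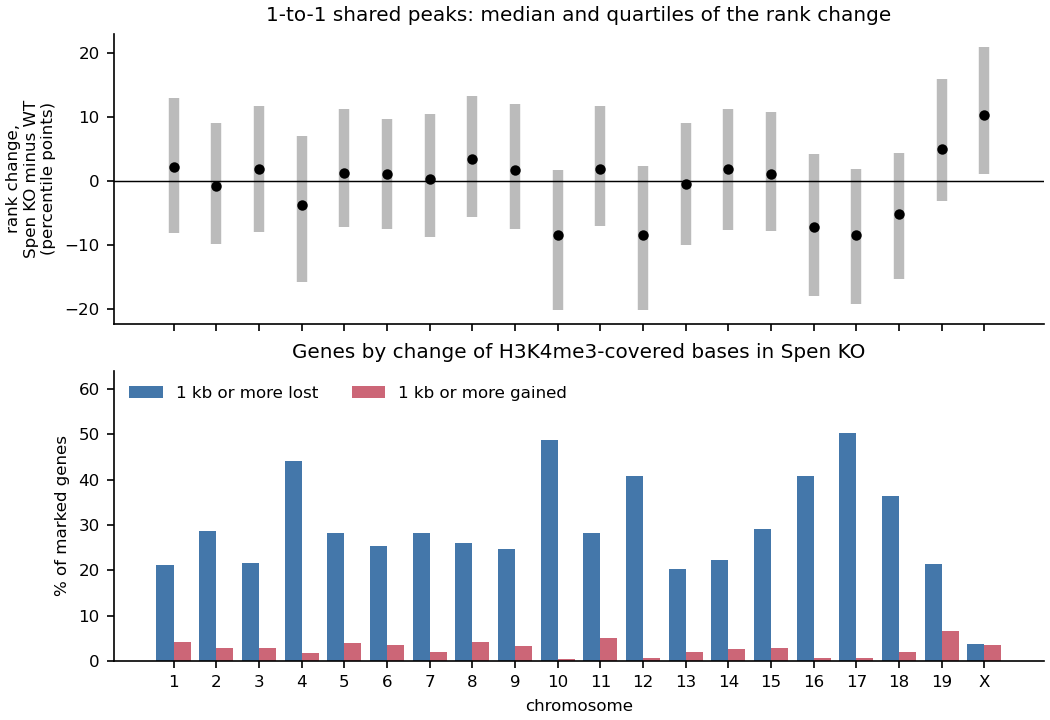
The upper panel gives the rank difference of 1-to-1 peaks on each chromosome in percentile points (dot, median; bar, quartiles), and the lower panel the percentage of marked genes with 1 kb or more of covered length lost or gained in Spen KO. Chromosomes 10, 12, 16 and 17 have medians between -8.48 and -7.14, the share of genes with a loss is highest on 17 (50.4%), 10 (48.7%) and 4 (44.1%), and the X has a median of 10.3.

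H3K27Ac was set beside the differences of H3K4me3. Of the 425 autosomal genes with 1 kb or more of H3K4me3 gained, 22.8% also gained 1 kb of H3K27Ac, against 2.25% of the 4631 genes with a loss and 3.502% of all marked autosomal genes. H3K27Ac was lost at 23.3%, 19.3% and 10.5% of the same groups, so genes with more H3K4me3 held both directions. The genes with a gain had a median span of 37.4 kb, against 22.6 kb for all marked autosomal genes. Their median WT coverage was 5016 bp, against 3215 bp. A longer window leaves more room for a change of 1 kb in either direction, and the part of length in these shares was not tested. Genes with and without H3K27Ac in WT were also compared. The median Spen KO over WT ratio was 0.79 for 10008 genes without and 0.84 for 5465 genes with H3K27Ac. A loss of 1 kb was less common without H3K27Ac (26.8%) than with it (36.0%), and so it was among genes of up to 2 kb of WT coverage, at 5.22% and 6.55%. In the longer ranges the order was the opposite. Among genes of over 10 kb of WT coverage, 96.2% of 78 without and 69.0% of 422 with H3K27Ac lost 1 kb, at 6 to 10 kb the shares were 82.8% and 59.4%, at 4 to 6 kb 59.8% and 39.2%, and at 2 to 4 kb 23.6% and 18.9%. The order over 10 kb and at 4 to 6 kb was the same without the 6 chromosomes, with 94.8% and 61.8% over 10 kb and 54.2% and 33.8% at 4 to 6 kb.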

How the data were processed

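The H3K4me3 peak lists of WT and Spen KO mESCs were analysed, with the H3K27Ac, H3K9me3 and Oct4 lists as further readouts. Per the submitters' processing notes and methods, the authors aligned reads to mm9 with Bowtie2, removed duplicates with Picard, ran MACS2 (q-value 0.01, with input as control) and kept H3K4me3 and H3K27Ac peaks at an IDR below 0.05 between 2 libraries. The deposited score per library is used as given, since the MACS2 column it came from is not stated. For H3K9me3 and Oct4 the deposited scores and fold enrichments were not used, only positions. Since the IDR step keeps only peaks alike in both libraries, the spread is understated. Depth per library is unknown, and a region without a peak may still have had signal close to the call limit. The authors compared genotypes with DESeq2 on read counts, which the lists do not hold.

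Starts are counted from 1, since the width column equals end minus start plus 1 in 100% of rows. Overlaps, covered bases, Wilson intervals and CpG were computed with Python 3.11.15, pandas 2.3.3, numpy 2.4.6, SciPy 1.17.1 and pysam 0.24.0 (figures, matplotlib 3.10.9), with GENCODE genes of mm9. Scores of 1-to-1 peaks were quantile-normalised on the log2 scale and tested with limma 3.58.1 (R 4.3.3, mean-variance trend, Benjamini-Hochberg over all peaks), after a test on simulated data. The simulated differences were far larger than most differences found here, so that test does not show the power to detect the latter. An exact permutation of 2 against 2 libraries cannot go below p = 0.333. The libraries being technical, p-values measure only the spread between them.

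Named genes were autosomal protein-coding genes other than Gm and Rik names: per direction, the 10 promoters marked in 1 genotype with the highest score percentile (2 passed over in WT, 0 in Spen KO), the 10 largest differences of covered bases (1 passed over among losses), the 10 largest rank differences among promoter peaks without overlap of the genotypes, and up to 4 members per gene list with a promoter marked in 1 genotype or a difference of 2000 bp. Further list members named beside them were chosen after their values were seen. Genes withheld from the text are not reported here. The lists and rules were chosen with earlier results of these data known. Alternatives are given below.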

Additional observations from a re-analysis of the deposited data

How the results depend on the processing

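No paired analysis was possible because the score columns do not name the library they came from. The limma count was 0 in both directions under every alternative (other centring, stronger 50% of peaks, no variance trend, chromosome centring, without 6 chromosomes), ranged from 0 to 0 with 1 library left out, and had 855 to 2275 peaks at an unadjusted p under 0.05. Cut to equal length, the lists gave 5314 WT-only peaks, with 16.1% at a promoter and 16.9% and 9.39% under WT and Spen KO H3K27Ac. In the stronger 50% of each list, WT-only peaks numbered 3258, Spen KO-only peaks 1094, and promoters marked in WT and Spen KO alone 1170 and 380. Merging of peaks within 1000 bp gave 5038 WT-only peaks. Without chromosomes 4, 10, 12, 16, 17 and 18 there were 5167 WT-only peaks, 294 promoters marked in WT alone and 2880 genes with a loss (24.7%). Gains and losses numbered 207 and 1633 at a minimum of 2000 bp and 1960 and 2008 after scaling Spen KO to the WT total. Within 5000 bp of a TSS, 192 genes gained, and Rbpj (-1990 bp), Itpk1 (-980 bp) and Tns3 (-1807 bp) changed sign. Among the 10 largest gains and 10 largest losses, 16 further differences became clearly smaller and 1 stayed similar. Jarid2 went from 50196 to 3903 bp, Kcnk5 from 11348 to 207 bp and Cradd from -11999 to -157 bp. The chromosome centring and the exclusion of the 6 chromosomes were chosen after seeing the data. On percentiles of the own list, 2827 peaks had both Spen KO values above WT and 7020 below, against 4461 and 4729. No rank difference of a named peak changed sign. With 1 library left out this was close to fixed in advance, since these peaks were chosen for no overlap of the genotypes. The causes of these shifts were not tested beyond what each setting removes. Peak lists without reads cannot tell a peak absent from one just under the threshold.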

Other observations

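Paternally expressed imprinted genes, a list made after the values of Zrsr1, Nnat and Mcts2 were seen, were examined as values only. Of 23 genes, 12 promoters were marked in both genotypes, 2 in Spen KO alone and 9 in neither, and 6 genes had 1 kb or more of covered length gained and 1 lost (7 and 0 after scaling Spen KO to the WT total). Besides the 3 genes, Inpp5f had 1736 bp in WT against 3100 bp in Spen KO, Peg12 1209 and 2260 bp and Slc38a4 7489 and 8712 bp, while Dlk1 had 4138 and 2476 bp. Peg3, Snrpn, Peg10, Sgce, Plagl1, Impact, Nap1l5, Rtl1 and Usp29 had no H3K4me3 in either genotype, and H3K9me3 was called in both genotypes at all of these other than Usp29. Rasgrf1 had promoter scores of 46.4 and 41.8 in WT against 21.1 and 13.2 in Spen KO.

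On chromosome 19, promoters marked in 1 genotype lay close together in both directions. Ctsf (starting at 4855129), Peli3 (4930651), Mrpl11 (4962315) and Rin1 (5050808), all marked in Spen KO alone, flank Brms1 (5041393), whose promoter was reached by a WT peak alone. Prdx5 (6981187) and Trmt112 (6984188), marked in Spen KO alone, lie beside the WT-only promoter peaks of Esrra (6993793 to 6997734) and Plcb3 (7041093 to 7045607).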
